A study of Mus musculus with 13 samples.

Results

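The 10 genes described here encode enzymes and carriers that make, move or use aspartate. They are Got1, Got2, Mdh1, Mdh2, Slc25a11, Slc25a12 and Slc25a13 of the malate-aspartate shuttle, Ass1 and Asl of the argininosuccinate steps, and Cad of pyrimidine synthesis. They were chosen by name, with earlier results of these data known, and all 10 were found among the 47937 genes counted. All 10 passed the filter on low counts in each of 5 comparisons.

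RNA came from untreated C57BL/6 mice of 6 weeks. It was taken from sorted double negative thymocytes of the DN3 and DN4 stages, which lie before and after β-selection. Wt;Lck-Cre+ mice (Wt) carried Cre recombinase alone, and Opa1fl/fl;Lck-Cre+ mice (KO-labelled) carried it together with floxed Opa1. Both groups thus shared a Cre that the Lck promoter drives in developing T cells. Both stages were sequenced from 3 KO-labelled mice (KO45, KO49, KO51) and 3 Wt mice (WT05, WT46, WT48), and DN4 alone from WT40, in 13 libraries. Values per library are given below in the order KO45, KO49, KO51 and WT05, WT46, WT48, with WT40 after WT05 in DN4. The comparisons asked whether RNA of these genes differs between the stages, between the genotypes, and whether the genotype difference depends on the stage.

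The malate-aspartate shuttle carries reducing equivalents of cytosolic NADH into mitochondria. Cytosolic malate dehydrogenase (Mdh1) makes malate, the oxoglutarate carrier (Slc25a11) brings it in, and mitochondrial malate dehydrogenase (Mdh2) oxidises it again. The aspartate aminotransferases, Got2 in mitochondria and Got1 in the cytosol, turn oxaloacetate and aspartate into each other, and the carriers Slc25a12 (aralar) and Slc25a13 (citrin) export aspartate in exchange for glutamate. In the cytosol, argininosuccinate synthase (Ass1) joins aspartate to citrulline, and argininosuccinate lyase (Asl) splits the product into arginine and fumarate. CAD uses aspartate in the first steps of pyrimidine synthesis, which supplies nucleotides to proliferating thymocytes.

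Libraries held 5926848 to 14148661 counts on genes, with a median of 10023044. In the DN3 library of WT05, 41.5% of counts fell on 11 ribosomal RNA-like genes, against 0.442% to 1.75% in the others, which left 3467641 counts for all other genes. Opa1 over the whole gene did not separate the genotypes, at 88.6 to 93.8 CPM in KO-labelled and 91.1 to 112 CPM in Wt DN3 libraries. In DN4 libraries it measured 77.0 to 87.9 and 85.1 to 93.8 CPM. Its mean was the lower in KO-labelled mice at both stages, 90.6 against 98.3 and 82.1 against 89.0 CPM. By immunoblot, the authors found less OPA1 protein in thymocytes of such mice. The genotype of a library therefore rests on its label. WT40 and WT46 had 3848 to 4238 counts on the Y chromosome and the other mice at most 1120, so sex was not balanced between the genotypes. T lineage markers summed to 2532 to 4117 CPM in every library. Il2ra, the interleukin 2 receptor chain that marks DN3 cells, had a mean of 1036 CPM in DN3 and 14.2 CPM in DN4 libraries, and the coreceptor gene Cd8a had means of 25.0 and 502 CPM. The 6 markers of DN4 and later stages, Cd8a among them, summed to 65.1 to 141 CPM in DN3 libraries. In DN4 libraries their sum ran from 520 CPM in WT48 to 3119 CPM in KO45. The 6 B cell markers summed to 20.9 to 54.7 CPM in DN3 and to 231 to 2950 CPM in DN4 libraries. The 5 plasmacytoid dendritic markers summed to 258 to 463 CPM in DN3 and 523 to 983 CPM in DN4 libraries, while the defining Siglech had at most 4 counts. Among them Irf8 had means of 10.8 and 87.2 CPM and Ccr9 of 171 and 548 CPM, and in the other direction Bst2 had 111 and 67.2 CPM and Tcf4 62.3 and 46.6 CPM. The 5 NK and innate lymphoid markers summed to 239 to 326 CPM in DN3 and 221 to 440 CPM in DN4 libraries. In this list Ncr1 and Klrb1c were at 0 mean CPM in DN3 and reached 52 and 65 counts in a DN4 library, and Eomes reached 71. The 6 myeloid markers summed to 53.5 to 72.1 CPM and the 6 erythroid markers to at most 6.19 CPM in all libraries. The 6 stromal and epithelial markers summed to 16.7 to 58.6 CPM in DN3 and 9.74 to 14.1 CPM in DN4 libraries, most of it Epcam with means of 35.9 and 9.04 CPM. In bulk RNA, fewer cells of a type and less RNA per cell cannot be told apart.

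Promoter windows of RefSeq on GRCm38.p6, 250 bases before the start of transcription, were matched by symbol for 9 of the 10 genes, all but Asl. They were searched on both strands for TGATGNAA, the core of the element through which ATF4 answers amino acid shortage. They were also searched for CACGTG, the E-box of basic helix-loop-helix factors such as MYC. TGATGNAA was present in 3.45% and CACGTG in 6.02% of all 32851 windows. Among the 9 genes, TGATGNAA was found in 1 (Got1, on the opposite strand) and CACGTG in 2 (Slc25a13 and Ass1). The window of Asns, the gene of asparagine synthetase, which spends aspartate, held TGATGNAA. The 30 bases around each match are shown in the direction of transcription, with the match in capitals, since these letters set the 4 promoters apart from the others.
Got1, chr19:43524689-43524718, minus strand: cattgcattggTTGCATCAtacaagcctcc
Slc25a13, chr6:6217281-6217310, minus strand: cacagtctgagtCACGTGtcctggcccctc
Ass1, chr2:31470222-31470251, plus strand: cgcgcccgtcccCACGTGtcccaggttcct
Asns, chr6:7693214-7693243, minus strand: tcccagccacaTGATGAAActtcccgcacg
The first base of the match lay 102, 125, 36 and 23 bases before the RefSeq start in Got1, Slc25a13, Ass1 and Asns. The stretches of Ass1 and Asns lie inside the GENCODE gene, whose first base is further upstream. A match is a run of letters, and binding of a factor was not measured.

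On GRCm38, which is mm10, GENCODE M21 places Got1 at chr19:43499752-43524605, Got2 at chr8:95864134-95888547, Mdh1 at chr11:21556787-21572367 and Mdh2 at chr5:135778480-135790398. The carrier genes Slc25a11, Slc25a12 and Slc25a13 lie at chr11:70644196-70647479, chr2:71271063-71367749 and chr6:6041218-6217173. Ass1 lies at chr2:31470207-31520672, Asl at chr5:130011258-130029247 and Cad at chr5:31054780-31078479. Exons of Got2, Mdh1 and Slc25a11 overlap exons of a gene on the other strand (Gm45760, Wdpcp and Rnf167), and whether counting used the strand is not given in the sources used here. Of the 50-base words in Ass1 exons, 38.6% also occur in the processed pseudogene Gm5424, which had 1 to 21 counts per library, where Ass1 had 255 to 1039. Of those in Got2 exons, 16.8% occur in the processed pseudogene Got2-ps1, which had 3 to 17 counts, where Got2 had 691 to 2629. How reads that fit both copies were counted is not known, so the values of Ass1 and Got2 are uncertain to that extent.

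Expression of the 10 genes covered a wide range. Levels are CPM, counts scaled to a common library size with TMM factors, and are divided by the kb of exon where genes are compared. In Wt DN3 cells the malate dehydrogenases led, Mdh1 at 105 ± 14.1 (SD, n = 3) and Mdh2 at 88.6 ± 13.8 CPM per kb. Cad followed at 49.7 ± 16.1, Got2 at 45.7 ± 4.72, Ass1 at 36.9 ± 9.15 and Slc25a11 at 30.1 ± 5.31 CPM per kb. Slc25a12 stood at 13.1 ± 0.330, Got1 at 12.5 ± 1.23, Slc25a13 at 5.09 ± 0.941 and Asl at 4.38 ± 1.05 CPM per kb. Neighbours in this order overlapped in range except Mdh2 with Cad, Slc25a11 with Slc25a12, and Got1 with Slc25a13. In Wt DN4 cells Mdh1 and Mdh2 again led, at 111 ± 10.6 and 80.8 ± 7.59 CPM per kb (SD, n = 4). Got2 at 37.7 ± 4.15 and Slc25a11 at 37.3 ± 3.65 came next and overlapped, ahead of Cad at 27.6 ± 1.89 and Ass1 at 20.2 ± 1.29 CPM per kb. Got1 at 12.9 ± 1.0, Slc25a12 at 10.4 ± 0.232, Asl at 4.81 ± 0.440 and Slc25a13 at 4.19 ± 0.736 closed the order, and of all neighbours in DN4 only Asl and Slc25a13 overlapped besides Got2 and Slc25a11. The order depends on the length used. With the longest transcript as the length, Mdh2 came first at 196 and Mdh1 next at 127 CPM per kb in Wt DN3 cells, and they stood at 179 and 134 in Wt DN4 cells. In Wt DN3 cells Got2 then stood at 87.2 above Cad at 57.0, Got1 at 15.4 above Slc25a12 at 15.2, and Asl at 8.76 above Slc25a13 at 6.20 CPM per kb.

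**Figure D1:**
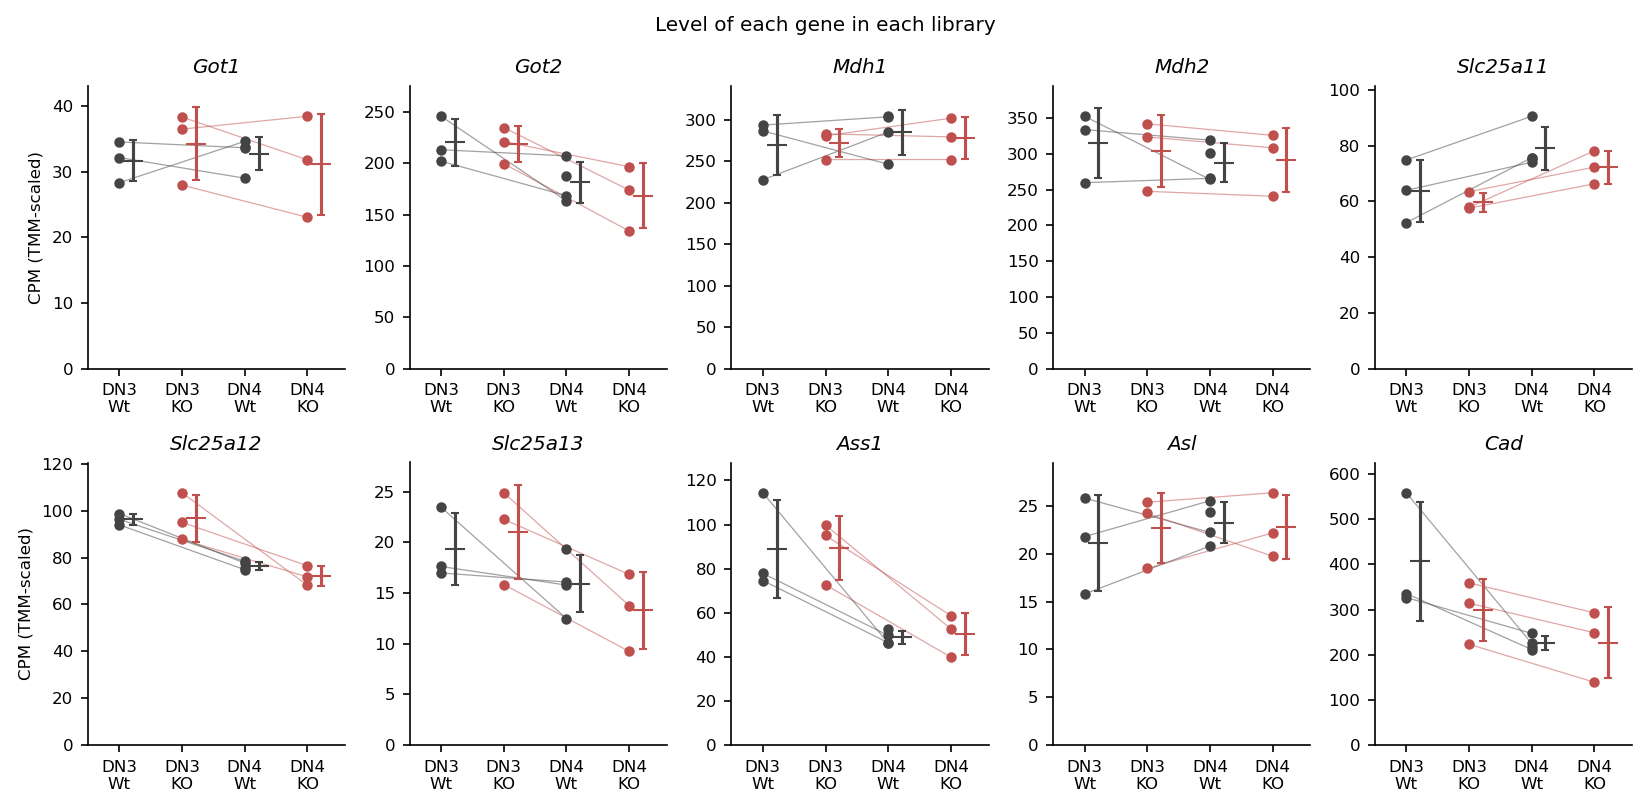
Level in CPM (y axis, from 0) of each of the 10 genes in every library by stage and genotype, Wt in grey and KO-labelled in red; points are libraries, thin lines join the DN3 and DN4 library of a mouse, and the bar beside the points is mean ± SD (n = 3, but 4 for DN4 Wt). Ass1 and Slc25a12 in DN4 lie below DN3 in both genotypes with no overlap, and KO-labelled and Wt libraries of one stage overlap for every gene.

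From DN3 to DN4, RNA of Ass1 and Slc25a12, which spend aspartate or export it from mitochondria, fell in both genotypes, and that of Cad fell in Wt mice, although Slc25a12 did not pass in Wt mice with the mouse as a block. In Wt mice 3 of the 10 genes thus fell and 0 rose, while 9.43% of all 12691 genes tested fell and 13.4% rose. In KO-labelled mice 2 of the 10 fell and 0 rose, while 7.34% of all 12580 genes fell and 11.2% rose. With the mouse as a block Got2, Slc25a13 and Cad fell there as well, where 16.9% of all genes fell. The median log2 fold change of the 10 genes was -0.23 in Wt and -0.28 in KO-labelled mice, beside -0.03 and -0.02 over all genes tested. A value below 0 was found for 6 and 8 of the 10, beside 6693 of 12691 and 6606 of 12580 of all genes tested.

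Ass1 had the lowest fitted value in both genotypes. In Wt mice it measured 74.6, 77.9 and 114 CPM in DN3 and 46.4, 52.8, 49.7 and 46.3 CPM in DN4 libraries. In KO-labelled mice it measured 72.7, 99.8 and 95 CPM in DN3 and 39.9, 52.7 and 58.7 CPM in DN4 libraries. Every DN3 library was above every DN4 library. The log2 fold change was -0.90 (SE 0.159, adjusted p = 0.00513) in Wt and -0.84 (SE 0.176, adjusted p = 0.0137) in KO-labelled mice. These and all fitted values that follow come from the quasi-likelihood test of edgeR, with p-values adjusted over all genes tested. Asl, the next enzyme of the route, measured 15.8 to 25.8 CPM in DN3 and 20.8 to 25.6 CPM in DN4 libraries of Wt mice. Its log2 fold change was 0.09 (95% confidence interval -0.32 to 0.51) in Wt and -0.03 (-0.46 to 0.41) in KO-labelled mice, and it was lower in DN4 in 2 and higher in 4 of the 6 mice with both stages.

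Cad, the pyrimidine enzyme, measured 559, 327 and 336 CPM in DN3 and 225, 218, 247 and 212 CPM in DN4 libraries of Wt mice. The Wt groups did not overlap, and the highest value was that of the DN3 library of WT05, which is rich in ribosomal RNA-like counts. The log2 fold change in Wt was -0.88 (SE 0.194, adjusted p = 0.0131), and -0.59 (adjusted p = 0.00556) without that library. In KO-labelled mice Cad measured 223, 314 and 359 CPM in DN3 and 139, 249 and 293 CPM in DN4 libraries. Each mouse was lower in DN4, but the groups overlapped because KO45 was low at both stages. The log2 fold change of -0.42 (SE 0.278, adjusted p = 0.339) did not pass, while with the mouse as a block Cad fell by 0.46 on the log2 scale (SE 0.103, adjusted p = 0.00759). Without the block the value was -0.19 without the DN4 library of KO45 and -0.67 without that of KO51, and passed in neither case.

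Slc25a12, the aspartate-glutamate carrier aralar, varied little between Wt mice. It measured 93.9, 96.3 and 98.8 CPM in DN3 and 74.8, 75.5, 78.4 and 77.6 CPM in DN4 libraries of Wt mice. In KO-labelled mice it measured 108, 95 and 87.7 CPM in DN3 and 68.2, 76.5 and 71.7 CPM in DN4 libraries. The stages did not overlap in either genotype. The log2 fold change was -0.36 (SE 0.0875, adjusted p = 0.0203) in Wt and -0.45 (SE 0.123, adjusted p = 0.0391) in KO-labelled mice. With the mouse as a block the value in Wt mice was -0.35 and did not pass (adjusted p = 0.136).

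Its paralogue Slc25a13 (citrin) measured 17.0, 17.6 and 23.5 CPM in DN3 and 16.1, 19.3, 15.8 and 12.5 CPM in DN4 libraries of Wt mice. The KO-labelled mice had 15.8, 24.9 and 22.3 CPM in DN3 and 9.24, 13.8 and 16.8 CPM in DN4 libraries. The stages overlapped, although DN4 was the lower in 6 of 6 mice. The log2 fold changes of -0.31 (SE 0.194, adjusted p = 0.290) in Wt and -0.68 (SE 0.264, adjusted p = 0.116) in KO-labelled mice did not pass, and the Wt value was -0.15 without the DN3 library of WT48. With the mouse as a block Slc25a13 fell in KO-labelled mice by 0.70 on the log2 scale (SE 0.166, adjusted p = 0.00979).

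The oxoglutarate carrier Slc25a11 had the opposite sign. It measured 52.4, 64 and 74.9 CPM in DN3 and 75.7, 75.7, 74.1 and 90.6 CPM in DN4 libraries of Wt mice. Values in KO-labelled mice were 63.5, 57.9 and 57.6 CPM in DN3 and 72.3, 78.2 and 66.3 CPM in DN4 libraries. DN4 was the higher in 6 of 6 mice, by 0.19 to 0.53 on the log2 scale, and the groups did not overlap in KO-labelled mice. The log2 fold changes of 0.28 (SE 0.143, adjusted p = 0.204) in Wt and 0.25 (SE 0.115, adjusted p = 0.169) in KO-labelled mice did not pass, and the Wt value was 0.15 without the DN3 library of WT05.

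Mitochondrial Got2 measured 202, 213 and 246 CPM in DN3 and 168, 187, 207 and 163 CPM in DN4 libraries of Wt mice. KO-labelled mice had 199.7, 235 and 221 CPM in DN3 and 134, 174 and 197 CPM in DN4 libraries. DN4 was the lower in 6 of 6 mice, and the groups did not overlap in KO-labelled mice. The log2 fold changes of -0.31 (SE 0.124, adjusted p = 0.115) in Wt and -0.40 (SE 0.154, adjusted p = 0.114) in KO-labelled mice did not pass, and with the mouse as a block Got2 fell in the latter by 0.42 on the log2 scale (adjusted p = 0.0104). Cytosolic Got1 measured 28.3 to 34.5 CPM in DN3 and 29.0 to 34.6 CPM in DN4 libraries of Wt mice, and 28.0 to 38.3 and 23.1 to 38.4 CPM in those of KO-labelled mice. Its log2 fold change was 0.03 (95% confidence interval -0.26 to 0.32) in Wt and -0.16 (-0.64 to 0.32) in KO-labelled mice.

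The malate dehydrogenases did not pass between the stages in either genotype. In Wt mice Mdh1 measured 228 to 294 CPM in DN3 and 246 to 304 CPM in DN4 libraries, with a log2 fold change of 0.05 (95% confidence interval -0.25 to 0.36). Mdh2 measured 260 to 353 CPM and 264 to 319 CPM, with a log2 fold change of -0.16 (-0.48 to 0.16). In KO-labelled mice the values were 0.01 (-0.25 to 0.27) for Mdh1 and -0.08 (-0.45 to 0.29) for Mdh2.

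**Figure D2:**
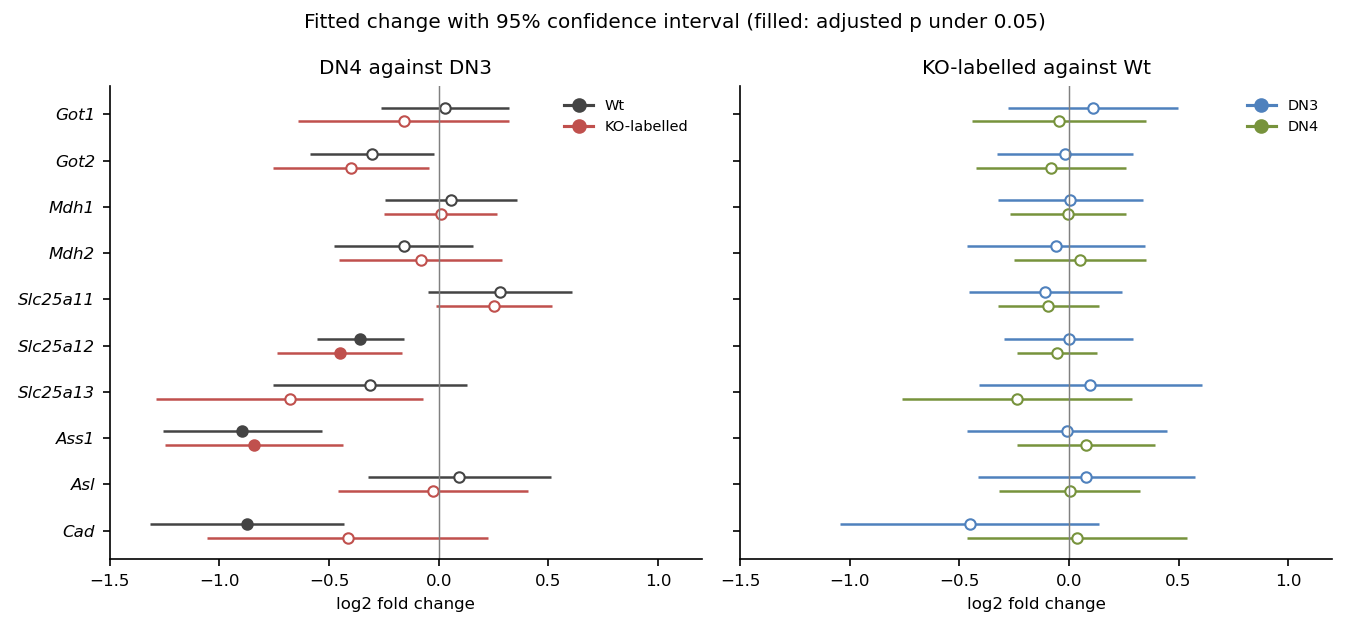
Fitted log2 fold change (x axis) of each gene with its 95% confidence interval, DN4 against DN3 on the left in Wt and KO-labelled mice and KO-labelled against Wt on the right in DN3 and DN4; filled points passed an adjusted p of 0.05. Ass1 and Slc25a12 are filled in both genotypes and Cad in Wt, and no point is filled on the right.

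Some stage calls changed when libraries were left out or the mouse was a block. With the mouse as a block, 2 of the 10 genes fell in Wt mice, Ass1 and Cad, against 6.53% of all genes, while Slc25a12 did not pass. In KO-labelled mice 5 fell with the block, Got2, Slc25a12, Slc25a13, Ass1 and Cad, against 16.9% of all genes. In Wt mice Slc25a12 lost its call without the DN3 library of WT46 or WT48 or the DN4 library of WT05 or WT40 (adjusted p of 0.0646 to 0.0801), with its value at -0.36 to -0.34. In KO-labelled mice it lost its call without either library of KO45 or KO49 (adjusted p of 0.0668 to 0.0825), with its value at -0.50 to -0.35. Ass1 lost its call in KO-labelled mice without the DN3 library of KO49 (-0.78, adjusted p = 0.0530), where 0 of the 10 genes passed. Without the DN4 library of KO51, 4 passed, with Got2 (-0.55, adjusted p = 0.0375) and Slc25a13 (-0.90, adjusted p = 0.0486) added. Without WT40 and WT46, Ass1 alone of the 10 genes passed in Wt mice, beside 1723 of all 12554 genes. Cad then stood at -1.06 (adjusted p = 0.0560) and Slc25a12 at -0.37 (adjusted p = 0.291). Library totals as the scaling moved the median of all genes in the Wt comparison from -0.03 to 0.16. Under it 0 of the 10 passed in Wt mice, against 1782 of all 12691 genes. Ass1, Cad and Slc25a12 then stood at -0.75, -0.59 and -0.18.

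The level of B cell markers moved with the stage. It summed to 1014, 1756 and 231 CPM in the DN4 libraries of KO-labelled mice and to 1553, 323, 432 and 2950 CPM in those of Wt mice. KO51 and WT46 had the lowest sums in DN4 among mice with both stages. The change of Ass1 within the mouse was -0.70 in KO51 against -0.87 and -0.92 in KO45 and KO49, and -0.65 in WT46 against -0.69 and -1.31 in WT05 and WT48, on the log2 scale. For Cad it was -0.30 in KO51 against -0.68 and -0.34, and -0.40 in WT46 against -1.31 and -0.67. For Slc25a12 it was -0.29 in KO51 against -0.66 and -0.31, and -0.30 in WT46 against -0.33 and -0.35. KO51 and WT46 had the smallest decrease of their genotype for each of these 3 genes. Among the other mice, KO45 fell more than KO49 in Cad and Slc25a12, although its sum was lower. WT05 likewise fell more than WT48 in Cad, while the other pairs followed the sums. In Slc25a13 KO51 again fell least, but WT05 fell less than WT46 (-0.08 against -0.16). Without the 4 DN4 libraries above 1000 CPM of these markers, 2 Wt (WT40 and WT46) and 1 KO-labelled DN4 libraries were left. In Wt mice 0 of the 10 genes then passed, against 1766 of all 12848 genes. The 2 Wt libraries are those with high Y chromosome counts. With 1 DN4 library, the KO-labelled fit is given by its sizes only. Ass1, Cad and Slc25a12 then stood at -0.82, -0.83 and -0.35 in Wt mice (adjusted p of 0.0564, 0.108 and 0.0997). Ass1 and Slc25a12 stood at -0.60 and -0.43 in KO-labelled mice, and Cad at -0.03 in place of -0.42. Got2 stood at -0.18 in Wt (adjusted p = 0.458) and -0.15 in KO-labelled mice. Slc25a13 stood at -0.17 in Wt (adjusted p = 0.666) and -0.31 in KO-labelled mice. Each value of Got2 and Slc25a13 was closer to 0 than with all libraries. Cd8a and the plasmacytoid dendritic list were higher in DN4 and the stromal and epithelial list lower, with no overlap of the stages for either list, and the NK list was higher in DN4 in Wt mice but overlapped between the stages in KO-labelled mice. The part of these genes in the stage values was not tested.

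Ratios of counts within a library do not depend on its size and were followed in the 6 mice with both stages. The ratio of Got1, the cytosolic aminotransferase, to mitochondrial Got2 was 0.131 to 0.171 in DN3 and 0.167 to 0.200 in DN4 libraries of Wt mice. In KO-labelled mice it was 0.140 to 0.165 and 0.172 to 0.195. It was higher in DN4 in 6 of 6 mice, by 0.28 ± 0.0963 on the log2 scale (SD, n = 6). The exact two-sided sign-flip permutation test gave p = 0.0312, the smallest that 6 mice allow, and an adjusted p of 0.0469 over 3 ratios. The ratio of cytosolic Mdh1 to mitochondrial Mdh2 was 0.813 to 0.879 in DN3 and 0.932 to 1.07 in DN4 libraries of Wt mice, and 0.821 to 1.02 and 0.906 to 1.05 in KO-labelled mice. It was higher in DN4 in 6 of 6 mice, by 0.15 ± 0.0961 on the log2 scale (SD, n = 6, exact permutation p = 0.0312, adjusted p = 0.0469). The cytosolic enzyme thus gained on the mitochondrial one by 1.22-fold in the first pair and 1.11-fold in the other on average. The ratio of the carriers Slc25a12 and Slc25a13 was 3.82 to 6.80 in DN3 and 3.91 to 7.38 in DN4 libraries. It changed by 0.16 ± 0.337 on the log2 scale (SD, n = 6), upwards in 4 and downwards in 2 mice (exact permutation p = 0.375).

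**Figure D3:**
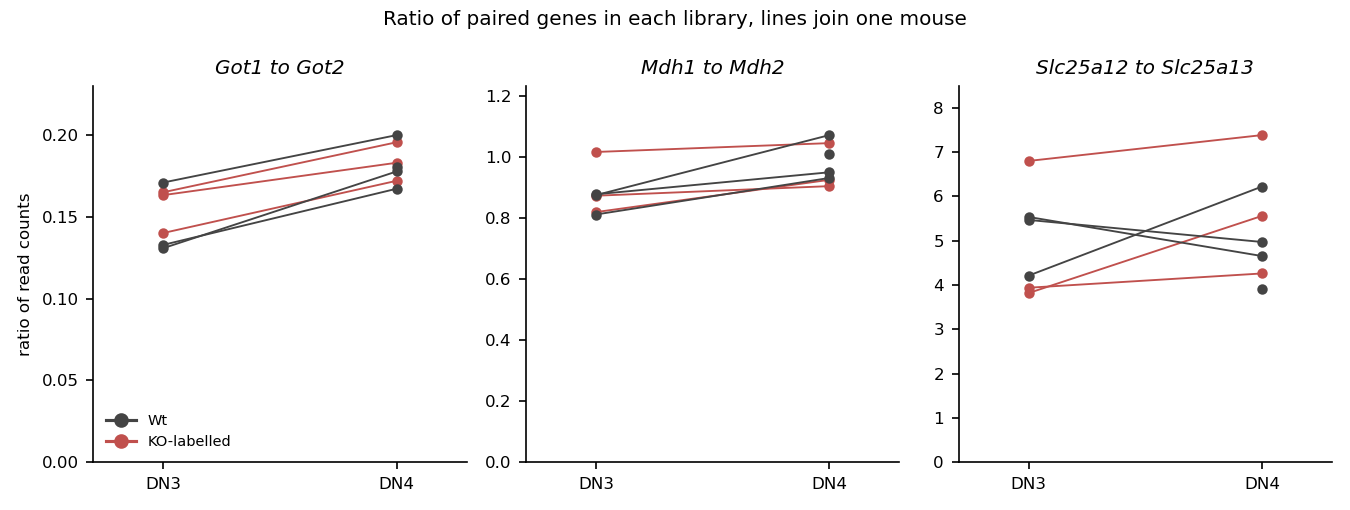
Ratio of read counts (y axis, from 0) of Got1 to Got2, Mdh1 to Mdh2 and Slc25a12 to Slc25a13 in each library at DN3 and DN4, Wt in grey and KO-labelled in red, with lines joining the libraries of one mouse and WT40 as a lone DN4 point. All 6 lines rise in the first 2 panels, by 0.28 and 0.15 on the log2 scale on average, and 4 of 6 rise in the third.

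Between the genotypes, 0 of the 10 genes passed in DN3 and 0 in DN4, by edgeR and by DESeq2, and 0 had an unadjusted p under 0.05. Over all genes, edgeR called 0% of 12105 in DN3 (168 at an unadjusted p under 0.05, and 3 called by DESeq2) and 0.0535% of 13084 in DN4 (715 at an unadjusted p under 0.05, and 51 called by DESeq2). KO-labelled and Wt libraries overlapped for every one of the 10 genes at both stages. The median log2 fold change of the 10 genes was -0.0044 in DN3 and -0.03 in DN4, beside -0.0053 and 0.0023 over all genes.

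Intervals of the genotype difference show what size these libraries leave possible. Ass1 differed by -0.01 (95% confidence interval -0.46 to 0.45) in DN3 and 0.08 (-0.24 to 0.39) in DN4. Among the aminotransferases, Got1 differed by 0.11 (-0.28 to 0.50) and -0.05 (-0.44 to 0.35), and Got2 by -0.02 (-0.33 to 0.29) and -0.08 (-0.42 to 0.26). Among the dehydrogenases, Mdh1 differed by 0.01 (-0.32 to 0.34) and -0.0047 (-0.27 to 0.26), and Mdh2 by -0.06 (-0.46 to 0.35) and 0.05 (-0.25 to 0.35). Slc25a12 had the narrowest interval of the 10 at both stages, -0.29 to 0.29 in DN3 and -0.24 to 0.13 in DN4. The carriers Slc25a11 and Slc25a13 differed by -0.11 (-0.46 to 0.24) and 0.10 (-0.41 to 0.61) in DN3, and by -0.09 (-0.33 to 0.14) and -0.24 (-0.76 to 0.29) in DN4. Asl differed by 0.08 (-0.42 to 0.57) and 0.0029 (-0.32 to 0.32).

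Cad had the lowest genotype value of the 10 in DN3, -0.45 (95% confidence interval -1.04 to 0.14), which stood at -0.15 without the DN3 library of WT05. In DN4 it differed by 0.04 (-0.46 to 0.54). Without the 4 DN4 libraries rich in B cell markers, Cad stood at 0.35 in DN4. That fit set 1 KO-labelled against 2 Wt libraries and takes the lone library to vary like the others. The 2 Wt libraries were WT40 and WT46, those with high Y chromosome counts, so genotype and sex cannot be told apart in it.

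The interaction of stage and genotype passed for 0 of the 10 genes, by edgeR with or without the mouse as a block and by DESeq2, and 0 had an unadjusted p under 0.05. It passed for 0% of all 13361 genes by edgeR (480 at an unadjusted p under 0.05) and for 2 genes by DESeq2. Cad had a value of 0.45 (95% confidence interval -0.34 to 1.24), or 0.18 without the DN3 library of WT05 and 0.77 without the DN4 libraries rich in B cell markers, and Slc25a13 of -0.37 (-1.11 to 0.36). The other 8 genes lay between -0.19 and 0.07. The 3 ratios differed between the genotypes by -0.11 to 0.20 on the log2 scale, with exact two-sided permutation p of 0.4 to 0.8 (adjusted p = 0.8 over 6 tests). Groups of 3 against 3 libraries allow no p under 0.1, and 3 against 4 none under 0.0286.

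Of 38 further genes of aspartate, asparagine, arginine and malate metabolism, 21 were tested in Wt mice, where 6 fell and 0 rose, against 9.43% and 13.4% of all genes. In KO-labelled mice 22 were tested, and 3 fell and 1 rose, against 7.34% and 11.2% of all genes. Their median log2 fold changes were -0.33 and -0.23. A value below 0 was found for 15 of 21 and 16 of 22, beside 6693 of 12691 and 6606 of 12580 of all genes. In nucleotide synthesis from aspartate 3 of 6 genes fell in Wt mice, and all 6 had a value below 0 in both genotypes. Adssl1, an adenylosuccinate synthase, went from 32.0 ± 12.2 (SD, n = 3) to 14.9 ± 0.813 CPM (SD, n = 4), with a log2 fold change of -1.15 (SE 0.248, adjusted p = 0.0119). Umps, which completes UMP synthesis, fell by 0.49 (adjusted p = 0.0400) and Adsl, adenylosuccinate lyase, by 0.36 (adjusted p = 0.0496) on the log2 scale. The mitochondrial dicarboxylate carrier Slc25a10 (-0.56, adjusted p = 0.0257) and the ornithine carrier Slc25a15 (-0.41, adjusted p = 0.0484) fell in Wt mice. With the mouse as a block 2 of these genes fell in Wt mice, Adssl1 among them, against 6.53% of all genes, while Umps, Adsl, Slc25a10 and Slc25a15 did not pass (adjusted p of 0.0664 to 0.147). In KO-labelled mice Adssl1 (-1.03, adjusted p = 0.00583) and its paralogue Adss (-0.40, adjusted p = 0.0354) fell. Gpd2, the mitochondrial enzyme of the glycerol phosphate shuttle for NADH, rose (0.47, adjusted p = 0.0480). With the block 9 of these genes fell in KO-labelled mice, against 16.9% of all genes, and Gpd2 again rose (adjusted p = 0.0115). Between the genotypes and in the interaction 0 of these genes passed by edgeR, and 1 in DN3, 3 in DN4 and 0 in the interaction had an unadjusted p under 0.05.

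Asns, asparagine synthetase, had the largest genotype value among the genes of the pathway tested, though at few counts. In DN3 the KO-labelled libraries had 61, 88 and 49 counts and the Wt libraries 5, 7 and 11. In DN4 the KO-labelled libraries had 33, 163 and 81 counts and the Wt libraries 6, 5, 9 and 4. Every KO-labelled library was above every Wt library of its stage, in counts and in CPM. Asns passed the filter on low counts through the KO-labelled libraries alone, was not tested between the stages in Wt mice, and has no genotype value when at least 10 counts are asked of every library. A gene that enters in this way had to differ between the genotypes, so its values are a description. The log2 fold change was 2.78 (SE 0.534) in DN3 and 3.76 (SE 0.533) in DN4. The main edgeR fit called Asns at neither stage, while DESeq2 and some alternatives called it. Entry to the main tests rested on the libraries where Asns is high. The calls are thus not read as evidence, and their p-values are not given. The interaction of 0.95 (95% confidence interval -0.79 to 2.70) did not pass. Of the 9 genes with a window, Got1 alone shares the TGATGNAA letters with Asns. Genotype intervals of all 10 genes include 0 at both stages, so those of Got1 do not set it apart. Whether ATF4 acts on either gene was not tested.

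**Figure D4:**
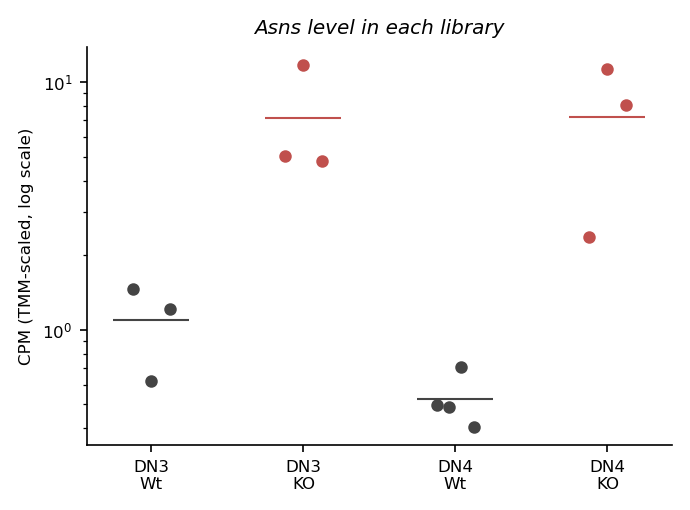
Level of Asns in CPM (y axis, log scale) in every library by stage and genotype, Wt in grey and KO-labelled in red; points are libraries and lines are group means. The 6 KO-labelled libraries sit between 2.36 and 11.7 CPM and the 7 Wt libraries between 0.406 and 1.46 CPM.

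The gene most like each of the 10 was sought over the 13 libraries, by Pearson r of log2 CPM with the mean of each group subtracted. What is compared is thus the spread between mice of one stage and genotype, and 13360 other genes were searched. For the shuttle enzymes these were Ctps for Got1 (r = 0.981), Timm50 for Got2 (0.966), Cops5 for Mdh1 (0.984) and Npm3 for Mdh2 (0.987). For the carriers they were Ptpn18 for Slc25a11 (0.965), Supt7l for Slc25a12 (0.928) and Dlat for Slc25a13 (0.972). For the genes that spend aspartate or follow it they were Sac3d1 for Ass1 (0.950), Wdr6 for Asl (0.913) and Timm17a for Cad (0.988). Among the 10 genes the highest r was that of Slc25a13 with Ass1 (0.906), followed by Got1 with Cad (0.886) and Mdh1 with Mdh2 (0.867). The lowest was that of Slc25a11 with Cad (-0.572). These values describe 13 libraries that share mice, depth and scaling, and the genes named are the highest of many.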

How the data were processed

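RNA of sorted thymocytes was measured in 13 libraries. Per the labels, the authors prepared stranded TruSeq mRNA libraries, mapped reads with STAR to mm10 and counted them with featureCounts, and they deposited raw read counts for each gene, all of them whole numbers, with no normalization. The annotation used for counting is not given in the sources used here. Gene names, coordinates and exon lengths came from GENCODE M21 (47310 of 47937 identifiers found when the version was ignored), promoters from RefSeq on GRCm38.p6.

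For each comparison, the libraries of its groups alone entered a fit with edgeR 4.0.16 in R 4.3.3 (quasi-likelihood test, filterByExpr with a minimum count of 10, TMM, Benjamini-Hochberg, threshold 0.05) and tested on simulated data. Confidence intervals are 95% and come from the same fit. Alternatives used DESeq2 1.42.0, limma 3.58.1, other scalings and filters, single libraries left out, and the mouse as a block. Leaving out ribosomal RNA-like genes, or DN4 libraries above 1000 CPM of B cell markers, was chosen after seeing the data.

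The 10 genes, the wider lists and the motifs were chosen with earlier results of these data known. Named from the wider lists were Asns, up to 3 genes per list with the smallest p among those passing in the Wt stage comparison, and genes passing between genotypes. Adss and Gpd2, which passed in KO-labelled mice, fall outside this rule and were named after their values were seen, as were the single marker genes named beside their lists. Results for a few single genes are not reported here, though counts over the lists include them.

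DN3 and DN4 libraries of one number come from the same mouse, and their deviations from the group means correlated by 0.460, 0.213, 0.332, 0.145, 0.124 and 0.182 over 13361 genes in KO45, KO49, KO51, WT05, WT46 and WT48. The block drops WT40. No duplicate libraries were found within a group. With a median of 10023044 counts, a gene with few counts such as Asns has a large counting error. Mice are the replicates, and 3 or 4 per group limit the precision.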

Additional observations from a re-analysis of the deposited data

Results flagged for a closer look

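Among 14 sets of 4 Wt DN4 values examined (the 10 genes, Asns and 3 ratios), 1 held a library far from the others. Slc25a11 measured 90.6 CPM in WT48 against 74.1 to 75.7 CPM in the other 3 libraries, the gap to the nearest being 0.9002 of the whole range, which is above Dixon's limit for 4 values. Chance marks about 1 in 20 such sets. The DN4 library of WT48 also had the highest sum of B cell markers, 2950 CPM, and its part in the value was not tested. The DN3 library of the same mouse was the highest of its group for Slc25a11, at 74.9 CPM.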

How the results depend on the processing

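Among 1066 values of single genes under alternatives, 1028 kept their side of the threshold, 26 lost a call, 12 gained one and 0 called values turned sign, while 100 values that never passed differed in sign from a main value of at most 0.19 in size. The number of the 10 genes that passed from DN3 to DN4 in Wt mice (3) was 0 with library totals, 0 with a log2 fold change of at least 1, 1 without WT40 and WT46 and 0 without DN4 libraries rich in B cell markers, and 2 to 3 with single libraries left out. In KO-labelled mice (2) it was 5 with the mouse as a replicate block, 0 with a log2 fold change of at least 1, and 0 to 4 with single libraries left out. Between the genotypes it was 0 under every alternative in DN3 and 0 in DN4, and the interaction gave 0 under every alternative, the block included (0). Fits with 1 KO-labelled DN4 library, those without DN4 libraries rich in B cell markers, are left out of these counts. The block changed no other call of the 10 genes beyond those given with the stage results. With 1 mouse left out the Got1 to Got2 ratio changed by 0.2526 to 0.3080 and the Mdh1 to Mdh2 ratio by 0.1157 to 0.1661, and 5 mice cannot reach the threshold. The Slc25a12 to Slc25a13 ratio changed by 0.0772 to 0.2397. Leaving out WT40 and WT46 applies to no KO-labelled stage comparison. Ratio changes with 1 count added stayed within 0.01 of the values given. Depth limits Asns, with 4 to 11 counts per Wt library. Levels per length moved by more than the SD in 19 of 20 cases with the longest transcript as the length.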
